A study of Homo sapiens with 16 samples.

Results

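The translation ratio of 17600 genes was ranked within H9 human embryonic stem cells treated with siOCT4, a small interfering RNA that targets OCT4, at 20% oxygen. The ratio of a gene is the level in the RNC fraction (ribosome-nascent chain complexes, ribosomes with the peptide they are making) over the level in total RNA. The genes are those with a ratio in both replicates of this condition, out of 28252 genes in the deposited table: 18272 had a ratio in replicate 1, 18187 in replicate 2, 1259 in 1 replicate only and 9393 in neither. H9 is an established line, cultured here in feeder-free mTeSR1 medium, and OCT4, encoded by POU5F1, is a transcription factor that keeps such cells undifferentiated. The series holds 16 libraries, a pair of RNA and RNC libraries for each of 2 replicates in 4 conditions (control siRNA or siOCT4, at 20% or 1% oxygen). Those of siOCT4 cells at 20% oxygen are 4 libraries that give 2 ratio columns; the ratios of the other 3 conditions were not used. The condition was taken from the labelled siRNA and oxygen level of each sample. Separate culture of the replicates is not stated in the labels, so the p-values here measure only the spread between these samples.

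In RNC-seq, ribosomes are pelleted together with the mRNAs they are translating, and the fraction is sequenced beside total RNA. An mRNA that is mostly on ribosomes has a higher ratio than an mRNA that is mostly free of them. The fraction counts an mRNA with a single ribosome like an mRNA with many, so the ratio is a measure of ribosome occupancy by mRNA molecules rather than of ribosome density. Ribosomal protein mRNAs are a classic case of translational control, since a run of pyrimidines at their 5′ end lets cells hold them off ribosomes or load them as growth signals change.

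The ratio was near 1 for most genes. Its median over the 17600 genes was 1.11 in replicate 1 and 1.10 in replicate 2, and the 10th and 90th percentiles were 0.741 and 1.70 in replicate 1 and 0.702 and 1.66 in replicate 2. The extremes were 0.0633 and 20.5 in replicate 1 and 0.0570 and 28.3 in replicate 2. The table holds no counts or levels, so the depth behind a ratio is unknown, and a high or low ratio can reflect either of its parts, the RNC or the total RNA. Many genes shared the same ratio: 6422 genes (36.5%) had, in either replicate, a ratio that 3 or more genes shared within a relative tolerance of 2e-06, called a recurrent ratio here. The replicates agreed closely for the other 11178 genes, with a median absolute difference of 0.11 on the log2 scale and a Pearson correlation across genes of 0.818. For the genes with a recurrent ratio the median difference was 0.48 and the correlation 0.125, and over all 17600 genes the correlation was 0.313. Genes are not independent replicates, and these correlations are descriptions.

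**Figure D1:**
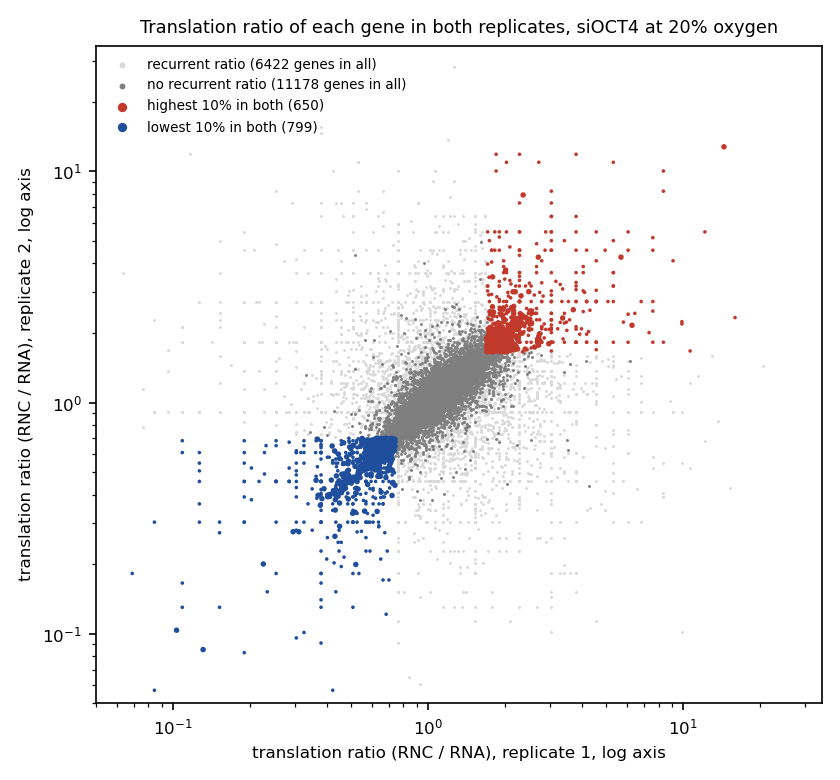
Each point is a gene, with its translation ratio in replicate 1 on the x axis and in replicate 2 on the y axis (both log axes); light grey points have a recurrent ratio, dark grey points have none, and red and blue points are the genes in the highest and lowest 10% of both replicates (smaller where the ratio is recurrent). The 11178 genes with no recurrent ratio lie along the diagonal, and the 6422 with a recurrent ratio form the scattered grid around it.

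A gene was called high or low where both replicates placed it in the highest or lowest 10% of all genes. By that rule 650 genes (3.69% of the 17600) were high and 799 (4.54%) were low, and 278 of the high and 471 of the low genes had no recurrent ratio. The call is a rank within each replicate and carries no p-value. The members nearest the edge were FAIM, just inside the high group with ratios of 1.71 and 1.66, and PRR12, just inside the low group with 0.741 and 0.647, while BCAP29 (1.70 and 1.71) and VIRMA (0.704 and 0.702) fell just outside. As a second measure, limma tested whether a gene's log2 ratio lay above or below the replicate's median over the genes in the fit. Over all 17600 genes it called 0 at an adjusted p under 0.05 (lowest adjusted p 0.148), although 4972 genes had an unadjusted p under 0.05. With the genes of recurrent ratio left out, it called 2360 of 11178 genes above the median (21.1%) and 2413 below (21.6%). All adjusted p-values and counts of genes above or below the median that follow come from limma without the recurrent ratios; with all genes in the fit no gene passed. Every one of the 278 high and 471 low genes with no recurrent ratio passed in that fit, which used the same ratios and is no independent test of the ranks.

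The low end was held by an untranslated RNA and by mRNAs of very large structural proteins. RN7SL2 and RN7SL1 are near-identical copies of the 7SL RNA, the RNA of the signal recognition particle, which docks on ribosomes but is not translated. RN7SL2 had ratios of 0.103 and 0.104, the lowest among genes with no recurrent ratio, and RN7SL1 had 0.131 and 0.0855. RN7SK, another small untranslated RNA, had lower ratios of 0.0844 and 0.0570 but a recurrent ratio, and is named after its values were seen. Reads of RN7SL1 and RN7SL2 cannot be assigned to either copy with certainty. The lowest mRNA was DYNC1H1, the heavy chain of the motor cytoplasmic dynein, with ratios of 0.226 and 0.2003. Its mean log2 distance from the median over all genes was -2.38 ± 0.11 (SD, n = 2), and the limma adjusted p was 0.00739. FN1, the matrix glycoprotein fibronectin, followed with 0.295 and 0.276. Among the 15 lowest genes were also the actin crosslinker FLNC (0.383 and 0.384) and the cytolinker PLEC (0.370 and 0.397). HSPG2, the basement membrane proteoglycan perlecan, had 0.411 and 0.401, SPTBN1, a spectrin of the membrane skeleton, 0.429 and 0.402, and FASN, the fatty acid synthase, 0.425 and 0.416. HELZ2, a large helicase, had 0.411 and 0.393. The replicates of these mRNAs differed from each other far less than from the median gene. Other members of the 15 were short or non-coding: LDLRAD2 (0.377 and 0.360), RHBDL1, a rhomboid-like protein (0.390 and 0.424), and the antisense RNA ADORA2A-AS1 (0.311 and 0.276), whose reads could not be told from those of overlapping genes because the strand setting is not given.

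The 15 highest genes had ratios over 2 in both replicates. EGFEM1P, a transcribed pseudogene, was highest with ratios of 14.4 and 12.8. MKX, a homeobox transcription factor known from tendon, had 5.70 and 4.25, and the non-coding RNA GS1-124K5.4 had 2.70 and 4.25. RGS4, which shuts off G protein signals, had 3.71 and 2.52. HMGN5, a protein that binds nucleosomes, had 2.48 and 3.02. KLK8, a secreted kallikrein protease, had 2.36 and 7.90, the widest gap among these genes (SD 1.24 on the log2 scale; adjusted p = 0.0447). The cilium gene IFT80 (2.35 and 2.35), the centrosome gene CEP70 (2.32 and 2.35) and MNS1, which is needed for sperm flagella (2.30 and 2.42), were at nearly the same level in both replicates. ZNF146, a zinc finger protein, had 2.50 and 2.29, C2orf74 had 2.31 and 2.89, and RD3, known from photoreceptors, had 3.37 and 2.32. LNCPRESS1, a long non-coding RNA of pluripotent cells, had 2.42 and 2.33. FPGT-TNNI3K (2.52 and 2.49) is a readthrough transcript that shares exons with both of its source genes, and CCDC152 (2.35 and 2.37) overlaps SELENOP, so the reads of both are uncertain.

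**Figure D2:**
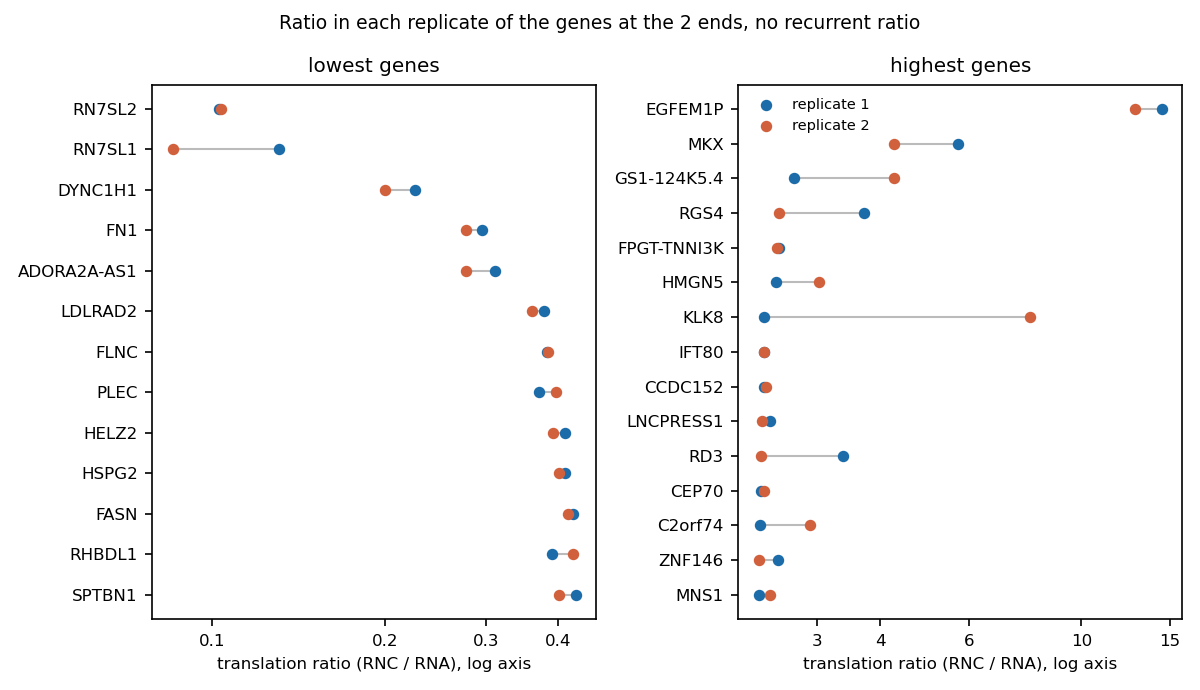
Translation ratio (log axis) of 13 of the 15 lowest genes (left) and the 15 highest genes (right) with no recurrent ratio; each row is a gene, with replicate 1 in blue and replicate 2 in orange joined by a line. The low genes range from 0.0855 for RN7SL1 to 0.429 for SPTBN1, with the widest gap in RN7SL1 (0.131 and 0.0855), while KLK8 among the high genes spans 2.36 to 7.90.

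Coding length ordered the ratio from end to end. Among protein-coding genes with no recurrent ratio, those with a coding sequence of up to 300 bases (159 genes) had median ratios of 1.37 and 1.39 in replicates 1 and 2. The median then stepped down with each class of length, to 1.19 and 1.23 at 600 to 1000 bases, 1.01 and 0.990 at 2000 to 3000, 0.875 and 0.827 at 4000 to 6000 and 0.735 and 0.667 over 9000 bases (105 genes). The low calls followed: 43.5% of the 230 genes with 6000 to 9000 coding bases and 45.7% of those over 9000 were low, against 0.371% of the 1888 genes with 600 to 1000. Of the 436 low protein-coding genes, 239 had a coding sequence over 4000 bases, as did 891 of all 10710 such genes, and the median coding length was 4432 bases in the low genes and 1113 in the high genes. Spearman's rank correlation between coding length and ratio across 10626 genes was -0.40 in replicate 1 and -0.51 in replicate 2. The lengths of the 5′ and 3′ untranslated regions showed rank correlations between -0.01 and 0.07. Lengths and base composition are those of the transcript with the longest coding sequence in GENCODE release 29, and may not be the transcript these cells make.

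The ratio also went down with GC content, up to about 50% GC in replicate 2 and through all classes in replicate 1. Genes with a transcript GC content up to 38% (692 genes) had median ratios of 1.49 and 1.43, and those over 62% (1160 genes) had 0.959 and 1.02, with rank correlations of -0.55 and -0.41. In replicate 2 the medians of the 4 classes over 50% GC lay between 0.999 and 1.02. Among the high genes 193 of 263 with a known composition were under 42% GC, as were 2406 of all 10986. Coding length and GC content were uncorrelated with each other across these genes (rank correlation 0.00034). GC content accounted for 28.7% of the variance of the log2 ratio in replicate 1 and 18.4% in replicate 2, coding length for 18.1% and 27.6%, and both for 46.8% and 45.8%. Where the properties met, 0.390% of short AT-rich genes (up to 1000 coding bases, GC up to 45%) were low, and 67.7% of long GC-rich genes (over 6000 bases, GC over 55%). The lowest share was 0.195%, in AT-rich genes of 1000 to 3000 coding bases. The short AT-rich genes had medians of 1.42 and 1.40, and the long GC-rich genes had 0.664 and 0.632. Both properties are ones that library preparation and read counting can also depend on, and their part in the ratio was not tested.

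**Figure D3:**
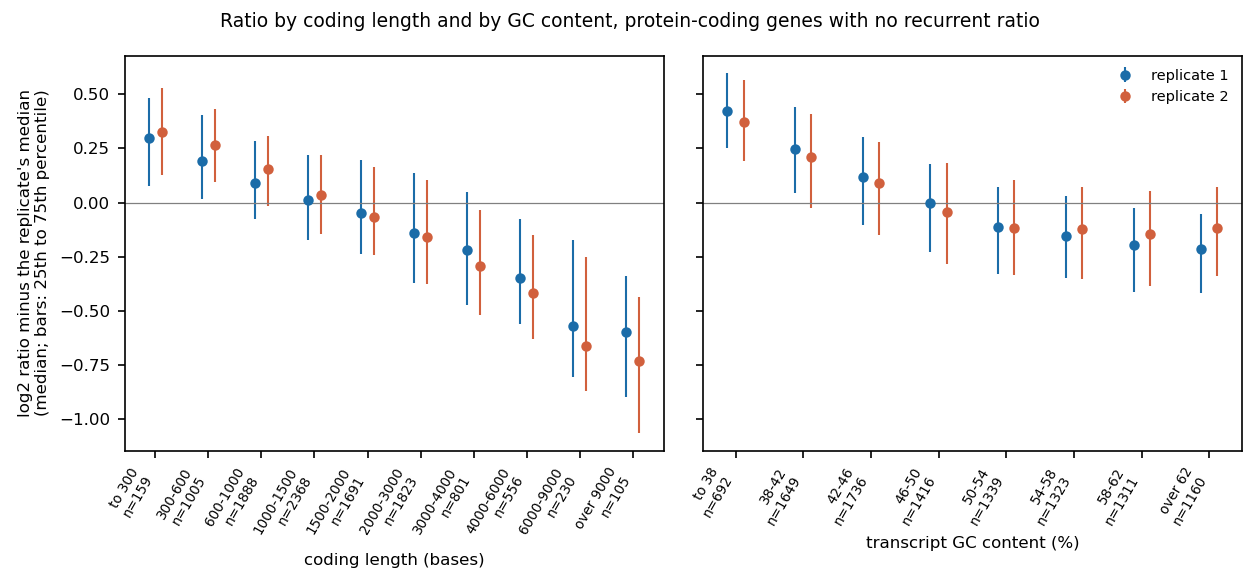
Median log2 ratio, relative to the replicate's median over all genes, of protein-coding genes with no recurrent ratio in classes of coding length (left) and transcript GC content (right); blue is replicate 1, orange is replicate 2, bars run from the 25th to the 75th percentile of genes and n is the number of genes. In both replicates the median falls from 0.30 and 0.33 in the shortest class to -0.60 and -0.73 in the longest, and from 0.42 and 0.37 in the most AT-rich class to -0.21 and -0.12 in the most GC-rich.

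Gene families took places that partly followed these gradients and partly left them. Of 57 gene lists described, the lowest medians were those of the extracellular matrix, keratins, cytosolic ribosomal proteins and glycolysis. Among lists in which most ratios were not recurrent, the highest were those of metallothioneins, histone variants, the respiratory chain and the mitochondrial ribosome. The lists are described by medians and counts, beside 3.69% high, 4.54% low, 21.1% above and 21.6% below the median over all genes, and no test compares a list with other genes.

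**Figure D4:**
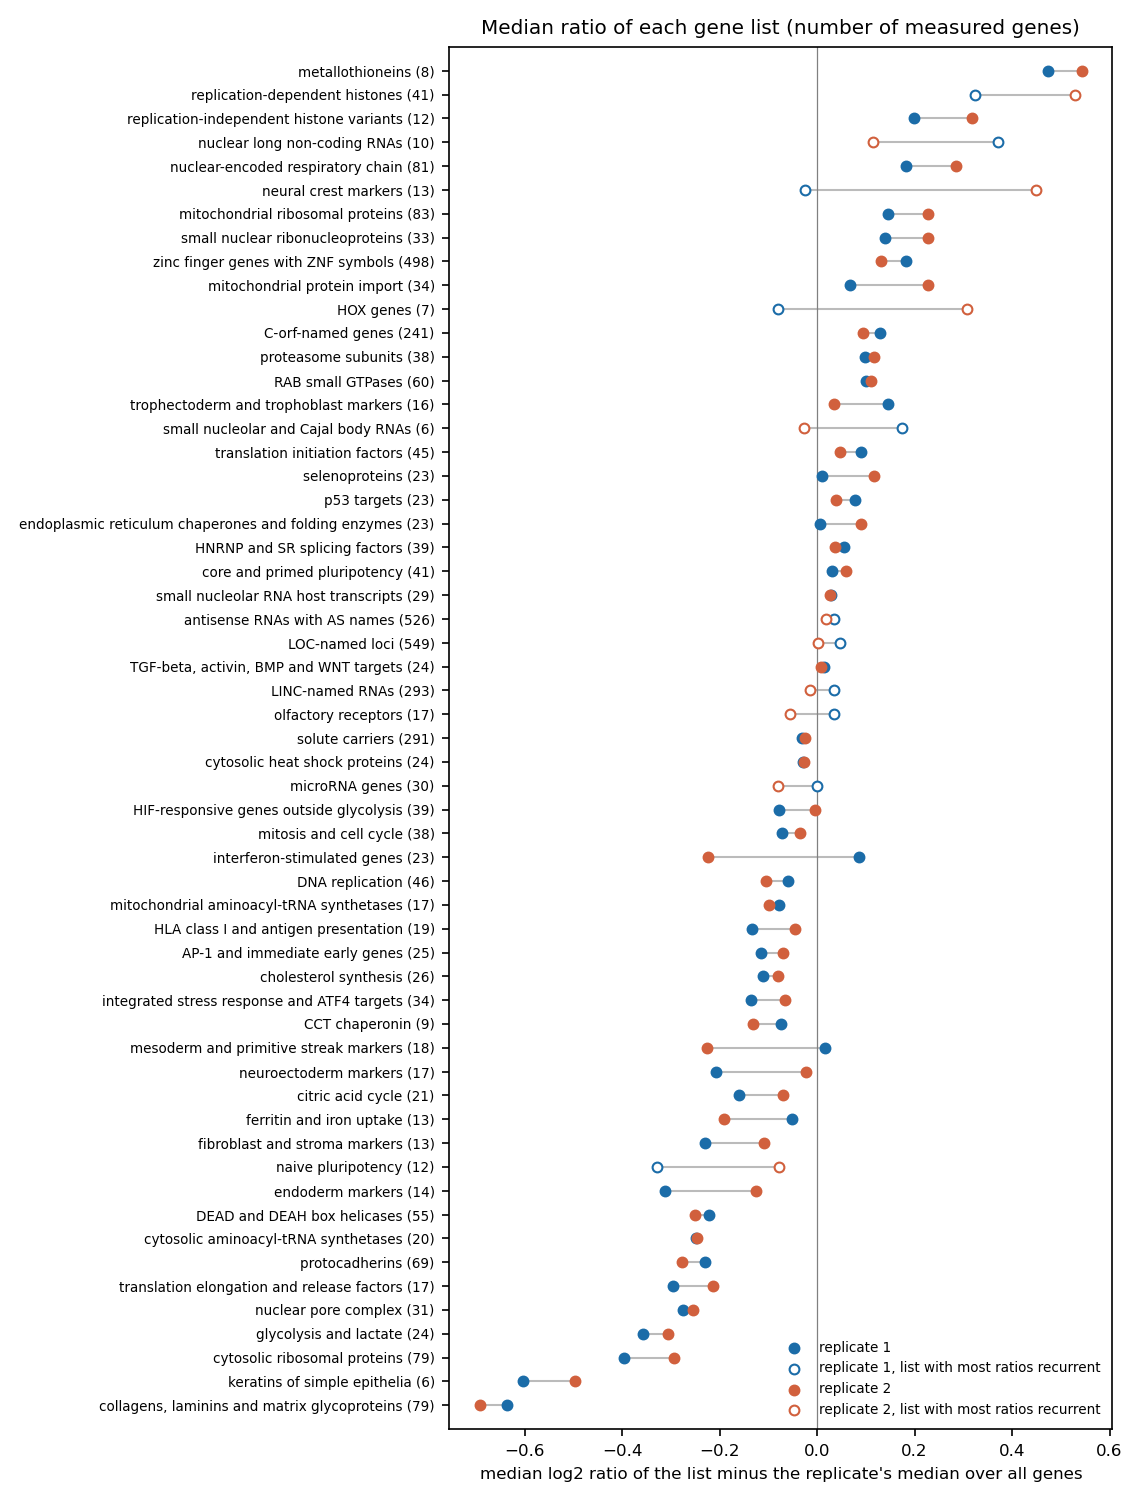
Median log2 ratio of each of the 57 gene lists relative to the replicate's median over all genes, with replicate 1 in blue and replicate 2 in orange; the number of measured genes stands after each name and open circles mark lists in which most genes have a recurrent ratio. Matrix genes lie lowest at -0.64 and -0.69 and metallothioneins highest at 0.47 and 0.54. The widest gap between replicates is in neural crest markers (-0.02 and 0.45), a list of open circles. Interferon-stimulated genes, with filled circles, also differ between replicates (0.09 and -0.22).

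Cytosolic ribosomal proteins build the ribosome that translates nuclear genes, and most of their mRNAs lay below the median although they are short. The 79 measured genes had median ratios of 0.846 and 0.902, 66 of them lay below the median in both replicates and 8 above it in both. By limma 47 of 78 were below the median and 2 were above. The lowest were RPS27, with ratios of 0.551 and 0.535, and RPS29, with 0.567 and 0.581. The only members above the median by limma were RPS26 (1.49 and 1.501; adjusted p = 0.0117) and RPL36A (1.30 and 1.43; adjusted p = 0.0313). The 32 proteins of the small subunit had medians of 0.809 and 0.847 and held 6 of the 8 low calls, and the 47 of the large subunit had 0.889 and 0.941. Their median coding length is 471 bases, and other protein-coding genes of that size range (1963 genes with no recurrent ratio) had medians of 1.25 and 1.30, against 0.851 and 0.905 for the 63 ribosomal proteins in the range. With GC content and coding length taken out, the list lay at -0.52 and -0.42 on the log2 scale. Many of these genes have processed pseudogenes elsewhere in the genome, and how the authors assigned shared reads is not given.

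The sequences around the annotated start of the lowest and highest ribosomal protein genes are shown because the pyrimidine run of these mRNAs begins there, beside TPT1, another mRNA known to carry it, and MRPL50, a mitochondrial ribosomal protein. Each is 30 bases on the transcribed strand, 10 before the start and 20 from it on, from RefSeq on GRCh38.p14; capitals mark the longest unbroken run of C and T, the first where there are equals, as in TPT1.
RPS27 (chr1:153990752-153990781, plus strand): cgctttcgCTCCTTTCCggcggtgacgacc
RPS29 (chr14:49598691-49598720, minus strand): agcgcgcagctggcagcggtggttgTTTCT
RPS26 (chr12:56041908-56041937, plus strand): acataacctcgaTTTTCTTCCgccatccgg
RPL36A (chrX:101391001-101391030, plus strand): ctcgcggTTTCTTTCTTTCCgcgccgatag
TPT1 (chr13:45341164-45341193, minus strand): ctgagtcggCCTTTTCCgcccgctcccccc
MRPL50 (chr9:101398599-101398628, minus strand): tgaaggctgcgctcaggcccgtggaTCTCa

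A run of at least 8 bases that are all C or T lay in this window in 50 of the 63 ribosomal protein genes with a RefSeq promoter (79.4%) and in 1694 of all 13070 measured genes with one (12.96%). It was in 9.46% of 74 mitochondrial ribosomal protein genes and 10.8% of 65 respiratory chain genes. The ribosomal proteins with and without it overlapped in ratio: the 50 genes with it had median ratios of 0.849 and 0.904, and the 13 without it had 0.749 and 0.848. RPS27 with a run of 9 bases was lowest, RPS26 with 9 and RPL36A with 13 were highest. Only the transcribed strand was searched, and the annotated start may not be the one used in H9 cells, as for RPS29, where the window held a run of 5.

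Factors that work with the ribosome were mixed by role. TPT1, which encodes the translationally controlled tumour protein, had ratios of 0.447 and 0.458, the lowest of 17 elongation and release factors and partners, and was the only low call of that list. EEF2, which moves the ribosome along the mRNA, had 0.706 and 0.769. ABCE1, which recycles ribosomes (1.51 and 1.61), and EEF1E1, a partner of the tRNA synthetase complex (1.49 and 1.65), were above the median, and by limma 8 of 16 members were below it and 3 above. The 20 cytosolic tRNA synthetases, which charge tRNAs, had medians of 0.937 and 0.932. Of 19 tested, 10 were below the median and 0 above, with VARS at 0.598 and 0.640 and AARS at 0.660 and 0.637. RARS (1.23 and 1.14; adjusted p = 0.270) and DARS (1.23 and 1.26; adjusted p = 0.0924) had the highest ratios of the family and did not pass. Of the 45 initiation factors 10 were above and 9 below, shares near those over all genes (21.1% and 21.6%). The large scaffold EIF4G1 (0.569 and 0.551) and EIF3C (0.673 and 0.679) were low in both replicates, while EIF2S2, a subunit of the factor that brings the initiator tRNA (1.67 and 1.65), and EIF5A2 (1.60 and 1.98) were above the median. The median of that list was above the replicate's median (0.09 and 0.05 on the log2 scale) but below it with GC content and coding length taken out (-0.09 and -0.04).

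**Figure D5:**
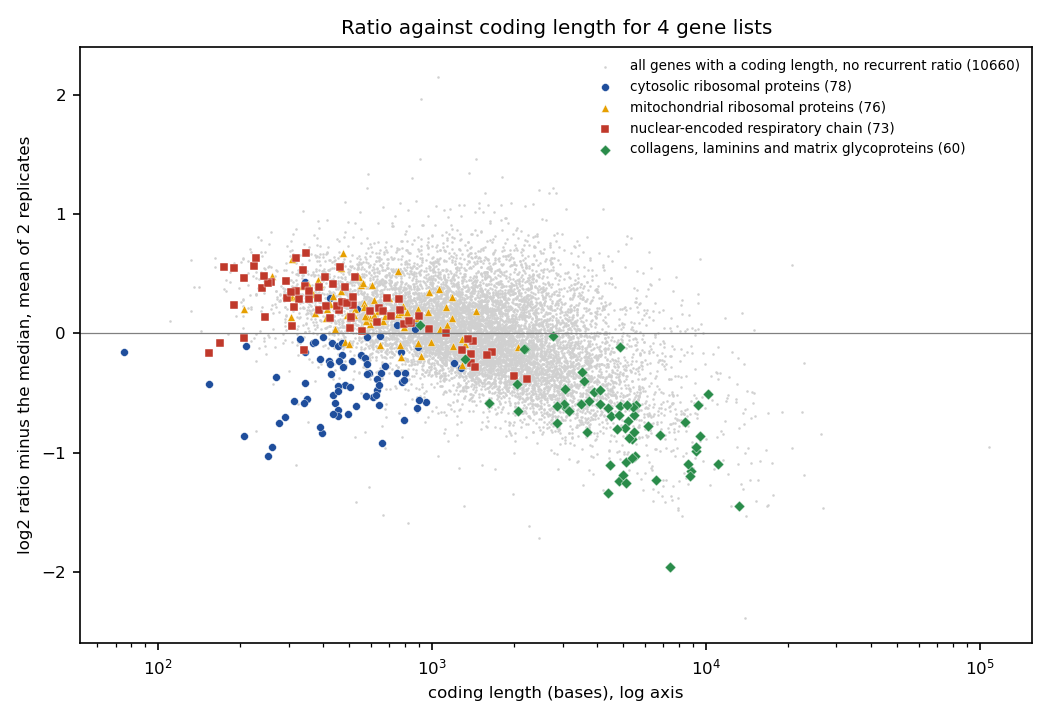
Mean log2 ratio over both replicates, relative to the median, against coding length (log axis) for genes with no recurrent ratio; grey points are all such genes, blue circles cytosolic ribosomal proteins (78), orange triangles mitochondrial ribosomal proteins (76), red squares respiratory chain subunits (73) and green diamonds matrix genes (60). At about the same coding length most blue circles lie below the grey cloud's middle and most red squares above 0, and the green diamonds lie at the long, low end.

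The mitochondrial ribosome and the nuclear-encoded respiratory chain, short mRNAs like those of the cytosolic ribosome, lay on the other side of the median. The 83 mitochondrial ribosomal proteins had median ratios of 1.23 and 1.29; by limma 22 of 76 were above the median and 1 below. MRPL50 (1.85 and 1.70) was the only high call of the list, MRPS36 had 1.57 and 1.86, and MRPS27 was the 1 member below (0.943 and 0.904; adjusted p = 0.0414). The 81 respiratory chain and ATP synthase subunits had medians of 1.26 and 1.35, with 33 of 73 above and 4 below. Complex I, the NADH dehydrogenase, stood at 1.30 and 1.40 (38 genes), complex IV, cytochrome oxidase, at 1.29 and 1.35 (12 genes), and ATP synthase at 1.23 and 1.28 (18 genes). Complex III had 1.13 and 1.24 (9 genes) and complex II 1.18 and 1.22 (4 genes). By rank 0 of the 81 were low and 1 was high. The lowest ratios were those of NDUFS1 and SDHA. NDUFS1, the largest core subunit of complex I, had 0.834 and 0.868, and SDHA, the flavoprotein of complex II, 0.932 and 0.800. The accessory subunit NDUFA5 (1.71 and 1.83) and the ATP synthase inhibitor ATP5IF1 (1.68 and 1.76) had the highest ratios. Across those of the respiratory chain genes with a known coding length, Spearman's rank correlation with coding length was -0.54 in each replicate. With GC content and coding length taken out, both lists moved close to the median, to 0.03 and 0.12 for the mitochondrial ribosome and 0.03 and 0.10 for the respiratory chain. Import proteins of the mitochondrion had 10 of 30 above and 1 below, led by TIMM21 (1.85 and 1.80) and TIMM17A (1.71 and 1.78).

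Matrix mRNAs were the lowest list. The 79 collagens, laminins and matrix glycoproteins had median ratios of 0.716 and 0.684, with 33 low calls and 1 high call, and 51 of 60 tested were below the median and 0 above. Besides FN1 and HSPG2 at its low end, the fibrillar collagen COL3A1 had 0.417 and 0.462, and the type I collagen chains COL1A1 (0.723 and 0.715) and COL1A2 (0.738 and 0.732) had closely matching replicates. The 11 laminin chains had medians of 0.698 and 0.667 and the 43 collagen chains 0.723 and 0.681. The highest tested members, SPARC (1.15 and 1.18; adjusted p = 0.381), a small collagen-binding protein, and COL9A1 (1.09 and 1.10; adjusted p = 0.919), did not differ from the median beyond their spread. The 50 matrix genes over 3000 coding bases with no recurrent ratio had medians of 0.641 and 0.661. The 1642 other protein-coding genes over 3000 bases had 0.900 and 0.853. Those others were shorter (median coding length 4059 against 5150 bases) and had a lower GC content (48.6% against 54.8%). With coding length alone taken out, the whole list lay at -0.36 and -0.34 on the log2 scale. Matrix genes of up to 3000 bases (17 genes, 7 with a recurrent ratio) had 0.902 and 1.02. With GC content and coding length taken out the list was at -0.26 and -0.25 on the log2 scale.

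Most glycolytic mRNAs were below the median. The 24 genes of glycolysis and lactate handling had median ratios of 0.869 and 0.894, and 17 of 24 were below the median and 0 above. The hexokinases, which trap glucose in the cell, were lowest, with HK2 at 0.686 and 0.570 and HK1 at 0.705 and 0.708. LDHA (1.12 and 1.13; adjusted p = 0.699) and LDHB (1.12 and 1.12; adjusted p = 0.791), the lactate dehydrogenase subunits, were at the median. The list kept its side with GC content and coding length taken out, at -0.24 and -0.22. In the citric acid cycle 5 of 20 were below and 1 above, where over all genes 21.6% were below and 21.1% above. The share below was thus near that over all genes. Pyruvate carboxylase, PC, had 0.648 and 0.497 and the ligase subunit SUCLA2 1.49 and 1.60.

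Of 29 tested nuclear pore proteins 16 were below the median and 3 above, and the scaffold proteins NUP188 (0.544 and 0.529) and NUP205 (0.603 and 0.555) were lowest, while NUP58 (1.46 and 1.37) and NDC1 (1.59 and 1.35) were above. The rank correlation with coding length across the 30 genes with a known coding length was -0.75 and -0.74. Of 42 DNA replication genes 15 were below and 6 above. POLE, the leading-strand polymerase (0.642 and 0.585), and MCM2, of the replicative helicase (0.618 and 0.695), were low in both replicates, and the origin subunits ORC4 (1.44 and 1.47) and ORC3 (1.52 and 1.41) were above the median. Of 47 DEAD and DEAH box helicases 24 were below and 2 above, with DHX9 at 0.558 and 0.531. SNRNP200, a helicase of the spliceosome, had 0.451 and 0.444, while the small core protein SNRPD1 had 1.82 and 1.84. The median of the 33 small nuclear ribonucleoproteins was above the replicate's median (0.14 and 0.23) but not with GC content and coding length taken out (-0.07 and -0.00). In the cell cycle list, the proliferation marker MKI67 (0.547 and 0.509) and the separase ESPL1 (0.485 and 0.544) were low, and the checkpoint protein MAD2L1 (1.51 and 1.45) and cyclin CCNE2 (1.89 and 1.51) were above the median. That list had 8 of 36 on each side, near the shares over all genes.

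Zinc finger genes with ZNF symbols, mostly DNA-binding repressors, took more of the high than of the low calls: 48 of 498 were high (9.64%) and 3 low (0.602%), and by limma 127 of 361 were above and 39 below. Their place moved with base composition. Those up to 40% GC (87 genes with no recurrent ratio) had medians of 1.61 and 1.48, those of 40 to 45% 1.40 and 1.34, and those over 45% (157 genes) 1.05 and 1.01. Other protein-coding genes in the same GC classes had 1.42 and 1.36, then 1.25 and 1.21, then 1.02 and 1.03. The extremes, ZNF117 (6.16 and 1.51) and ZNF25 (1.61 and 4.94), differed widely between replicates and did not pass limma (adjusted p = 0.109 and 0.0830), while ZNF629 (0.723 and 0.673) and ZNF646 (0.721 and 0.676) were low in both.

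Metallothioneins, small cysteine-rich proteins that bind zinc and copper, had median ratios of 1.55 and 1.61 over 8 genes, and 5 of 5 tested were above the median. MT1E had 1.76 and 1.95 and MT1G 1.74 and 1.68, both high calls, the highest tested member, MT1H, had 2.13 and 1.63, and the lowest was MT1F with 1.46 and 1.53. MT1L, a pseudogene of the family with a recurrent ratio, had 0.570 and 0.912. With GC content and coding length taken out the family was at 0.43 and 0.45. Its members are close copies, so reads may be shared among them. Histone variants, made outside the replication phase and with poly(A) tails, had medians of 1.28 and 1.38 over 12 genes, with 6 of 10 above and 0 below, led among tested genes by H3F3B (1.51 and 1.57). Their median log2 distances were 0.20 and 0.32, and 0.06 and 0.15 with GC content and coding length taken out. Of the 41 replication-dependent histones, whose mRNAs end without a poly(A) tail, 37 had a recurrent ratio, and their medians were 1.39 and 1.60. The 23 selenoproteins, which need recoding of a stop codon, had medians of 1.12 and 1.20, near those over all genes, and 3 were high and 0 low. SELENOF had 2.10 and 2.14. SELENOP had 2.24 and 2.13, but it overlaps CCDC152, so its reads are uncertain. The third was SELENOT (1.80 and 1.83), named after its values were seen. SELENOW, the lowest tested member, had 0.805 and 0.843.

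POU5F1, the target of the siRNA, had ratios of 1.41 and 1.42, at percentiles 78.3 and 80.7 of the replicates. It was above the median but not a high call. Its mean log2 distance from the median over all genes was 0.35 ± 0.02 (SD, n = 2), and the limma adjusted p was 0.0170. A ratio does not show how much POU5F1 mRNA was left, so the knockdown cannot be checked here, and copies of POU5F1 elsewhere in the genome may share reads with it. The 41 genes of core and primed pluripotency had medians of 1.14 and 1.15, with 1 high and 0 low calls, and 13 of 38 above and 8 below. APELA, a small peptide hormone of stem cells (1.77 and 1.67), was the high call, and the deubiquitinase USP44 had 1.62 and 1.90. The adhesion protein CDH1 (0.682 and 0.738) and the sialomucin PODXL (0.741 and 0.732) were lowest. NANOG (1.32 and 1.34) and SOX2 (1.14 and 1.12), partners of OCT4 that were named after their values were seen, lay between them. Of the genes of naive pluripotency 7 of 12 had a recurrent ratio, and SUSD2, a surface protein, had 0.431 and 0.264 and was low.

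Markers of other lineages and cell types were spread over the whole range, as ratios of the mRNAs that were detected and not as levels. In the endoderm list GATA4 had 0.790 and 0.826, SOX17 0.921 and 1.04 and CER1, a secreted inhibitor, 1.47 and 1.48, with 6 of 10 below the median and 1 above. The neural stem cell filament NES had 0.545 and 0.524 and the forebrain factor LHX2 1.48 and 1.47. Of 11 tested neuroectoderm markers 6 were below the median and 1 above. In the mesoderm list the receptor KDR had 0.769 and 0.784 and HAND1 1.29 and 1.45, with 3 of 12 below and 2 above. GATA3, of the trophectoderm list, had 0.857 and 0.958, and IGF2 1.65 and 1.58, with 1 of 9 below and 2 above. Over all genes 21.6% were below and 21.1% above. Of the simple keratins KRT8 (0.668 and 0.733), KRT18 (0.708 and 0.765) and KRT19 (0.758 and 0.803) were below the median. KRT10 (1.57 and 1.66), which was in the same list but is a keratin of stratified epithelia, was above it. These ratios do not show which cells were present.

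Stress and signalling lists had medians near those over all genes. None of 34 genes in a list of ATF4 targets and other genes of the integrated stress response was high or low (0 and 0, against 3.69% and 4.54% over all genes), and 3 of 32 were above the median and 9 below; the serine synthesis enzyme PHGDH had 0.679 and 0.763 and the cystine transporter SLC7A11 1.39 and 1.28. The same held by rank for the 25 immediate early genes and the 26 genes of cholesterol synthesis (0 high and 0 low in each), and EGR1 (1.52 and 1.48) and STARD4 (1.68 and 1.55) were their highest tested members. Among 22 tested heat shock proteins 8 were below and 4 above. By rank 4 of the 24 measured were low (16.7%, against 4.54% over all genes) and 1 was high, with HSPA1B at 0.582 and 0.661 and the small chaperonin partner HSPE1 at 1.82 and 1.97. Ferritin, whose mRNA carries the classic iron-responsive element, had 0.583 and 0.635 for the light chain FTL, a low call, and 0.780 and 0.786 for the heavy chain FTH1. Of 12 tested genes of ferritin and iron uptake 5 were below the median and 3 above, and the part of the element was not tested. Of 23 p53 targets 2 were high (8.70%, against 3.69% over all genes) and 0 low. The 2 were the death receptor FAS (2.14 and 1.79) and the ribonucleotide reductase subunit RRM2B (1.77 and 1.74). By limma 6 of the 23 were above the median and 3 below, against 21.1% and 21.6% over all genes.

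Non-coding RNAs as a class had medians close to those of mRNAs. The 1356 genes that RefSeq types as long non-coding RNAs had median ratios of 1.14 and 1.10, the 15381 protein-coding genes 1.11 and 1.11, and the 265 long non-coding RNAs with no recurrent ratio 1.13 and 1.11. Of the latter 14 were high (5.28%) and 24 low (9.06%), larger shares at both ends than over all 11178 genes with no recurrent ratio (2.49% and 4.21%). Among small nucleolar RNA hosts, spliced transcripts that carry snoRNAs in their introns, SNHG5 had 0.629 and 0.641 and SNHG10 0.602 and 0.688, while SNHG30 had 1.53 and 1.78. KCNQ1OT1, an imprinted nuclear RNA, had 1.13 and 1.15, and TUG1 1.36 and 1.32.

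Grouping genes by the letters of their symbols, in 230 families of 10 or more showed further extremes. The lowest families were the myosin heavy chains (MYH, 0.521 and 0.638, 10 genes of which 6 had a recurrent ratio), the chromodomain remodellers (CHD, 0.720 and 0.683) and the collagens. Genes with MCM symbols, among them MCM2 of the replicative helicase (11 genes, none recurrent), came next, with 0.772 and 0.742. The MYH, CHD and collagen families are long, with median coding lengths of 5859, 6020 and 4476 bases. With GC content and coding length taken out, the median log2 distance was -0.37 for MYH and -0.16 for CHD. It was -0.24 for the collagens and -0.32 for MCM. The highest family with few recurrent ratios was THAP, of zinc finger proteins (14 genes, 1.58 and 1.38). The complex I subunits named NDUFA (1.39 and 1.52) and the COMMD proteins of endosomal sorting (1.37 and 1.34) followed. With GC content and coding length taken out, THAP was at 0.18, NDUFA at 0.27 and COMMD at 0.20 on the log2 scale. In 50 of the 230 families most ratios were recurrent, among them the TBX family at the very top (12 of 13).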

How the data were processed

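Per the labels, RNA-seq and RNC-seq libraries of H9 cells were made for 4 conditions. The deposited values are in the unit ratio, the quotient the authors formed of RNC and total RNA for each gene and replicate; they are linear and hold no counts. Per the submitters' processing notes edgeR and hg19 were used, with no role given; as for the mapper, annotation, filters and depth, nothing is stated in the labels or the file. The columns headed sO were read as siOCT4. The ratio columns of the other 3 conditions (6 columns) were not used.

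Genes with a ratio above 0 in both replicates were ranked in each. log2 ratios were centred on the replicate's median over the genes in each fit (without recurrent ratios that median was at -0.02 and -0.01 of the one over all genes) and fitted with limma 3.58.1 (intercept only, robust, statmod 1.5.0, R 4.3.3), as a two-sided test adjusted by Benjamini-Hochberg over the genes in each fit and a threshold of 0.05; 1 residual degree of freedom per gene remained. On simulated data with this spread, the fit over 17600 genes called 0 of 50 genes at each of the log2 changes 1, -1, 2 and -2. The fit over 11178 genes called 43 of 50 at 1, 46 of 50 at -1, 50 of 50 at 2 and at -2, and 10 of 10978 unchanged genes.

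Members, lists and families were chosen with earlier results of these data known. Named genes were POU5F1, the 15 highest and 15 lowest called genes with no recurrent ratio, ordered by the less extreme replicate, and per list the 2 highest and 2 lowest with none, or any member of a list of 15 or fewer. The text describes a subset of them, and 2 of the 15 lowest genes are not reported here. Lists needed 5 measured genes and symbol families 10; subunit symbols of ATP synthase and SEM1 were added in their current form after the table's symbols were seen. Types came from RefSeq (17265 genes matched), GC content and lengths from GENCODE release 29 (16783 genes, 95.4%), matched by symbol; both are on a newer genome build than hg19, and their coordinates apply only to the start sequences. The RefSeq promoter table (GRCh38.p14) was read in a window of 30 bases, first row per symbol. Corrections took residuals from splines with 6 degrees of freedom. Tables and plots were made in Python 3.11.15 with pandas 2.3.3, matplotlib 3.10.9, scipy 1.17.1 and numpy 2.4.6.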

Additional observations from a re-analysis of the deposited data

How the results depend on the processing

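Calling the highest and lowest 5% in both replicates gave 222 high and 293 low genes, and calling 20% gave 1889 and 2016. With only 1 replicate, whichever was left out, the rule gives 1760 genes at each end by its construction. Limma called 2360 genes above and 2413 below the median with recurrent ratios left out and 0 over all genes, with prior degrees of freedom of 3.41 and 1.27 and a prior SD of 0.106 and 0.134; the cause was not tested. It also called 0 with a trend, without robust settings, with pseudocounts of 0.01 and 0.1, for protein-coding genes only and after each correction. The counts of high and low genes stayed within 1.5 times of 650 and 799 under all corrections for GC content and length. Of the 486 high and 646 low genes with a known GC content and coding length 66.5% and 59.9% were called again after both were corrected, an alternative chosen after seeing the data. List medians stayed on the same side of the median in 51 of 56 lists with GC content corrected, 42 of 50 with GC content and coding length corrected and 45 of 50 with recurrent ratios left out. No paired analysis was possible because only the replicates of 1 condition were used. Depth is unknown.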
